A study of Arabidopsis thaliana with 2 samples.

Results

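The nuclear genes of the light-harvesting antenna, the photosystems and Rubisco were followed in the main stem of Arabidopsis thaliana. The 44 genes were taken by locus identifier. They comprise 4 LHCA and 14 LHCB antenna genes, 12 nuclear genes of photosystem I, 9 of photosystem II, 4 genes of the Rubisco small subunit (RBCS) and the gene of Rubisco activase (RCA), out of 33602 loci in the deposited table. RNA came from stems of hdt1 mutant plants and of wild-type plants, each harvested 35 days after flowering from plants grown in a greenhouse in long days, and the labels give the tissue as mature stem. The series has 1 library per genotype. HDT1 encodes a plant-specific histone deacetylase of the nucleolus. The sources used here do not name the hdt1 allele, the time of day of collection or the number of plants behind a library.

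In the chloroplast, LHCA proteins feed light energy to photosystem I and LHCB proteins mainly to photosystem II. The reaction centres combine subunits from plastid genes with the nuclear PSA and PSB subunits followed here. Rubisco then fixes carbon dioxide with large subunits from the plastid and small subunits from the nuclear RBCS genes, and its activase frees blocked active sites. Green stems carry out photosynthesis in the cortex beneath the epidermis, and transcripts of these genes are among the most abundant nuclear ones of green tissue.

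The deposited values are FPKM, reads per kilobase of gene relative to the total of the library. Their smallest steps give totals of 23070249 counted reads for hdt1 and 21728500 for wild type. The sources used here do not say whether a count is a single read or a read pair, or what was done with reads that match several genes. The deacetylase gene itself, HDT1 (AT3G44750), stood at 5.19 FPKM in hdt1 stem against 52.6 FPKM in wild-type stem. The stem markers CESA4, CESA7, CESA8, NST3, SUC2 and APL ranged from 13.6 to 147 FPKM in the hdt1 library and from 6.77 to 110 FPKM in the wild-type library. All 6 stem markers were higher in hdt1, against 46.0% of all genes averaging 1 FPKM or more. CESA7, of the secondary wall, was 3.59-fold higher (3.28 to 3.93). All 3 epidermis markers were lower, against 54.0% of those genes. The wax gene CER1 was at 8.11 FPKM in hdt1 stem against 11.7 FPKM in wild-type stem. PDF1 averaged under 1 FPKM, at 0.244 FPKM from 7 reads in hdt1 stem against 0.852 FPKM from 23 reads in wild-type stem. The part of tissue composition in the ratios below was not tested. Seed markers reached at most 0.247 FPKM and flower markers at most 1.63 FPKM in either library.

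All 44 genes were above the limit of a mean of 1 FPKM used for the comparison, with means from 13.4 FPKM for LHCB2.3 to 4952 FPKM for LHCB1.3. Most were slightly lower in the hdt1 library. Of the 44, 39 had a log2 ratio of hdt1 over wild type, with 1 FPKM added to each value, below 0 and 5 above 0, against 54.0% of the 17811 genes compared below 0 and 46.0% above. None was at least 2-fold higher, against 2.32% of the genes compared, and none was at least 2-fold lower, against 0.741%. At a limit of 1.5-fold, 0 members were higher, against 7.04% of the genes compared, and 1 was lower, against 3.21%. The median log2 ratio of the 44 genes was -0.18, with quartiles of -0.25 and -0.09, and that of all genes compared was -0.03. With 1 library per genotype these are differences between 2 libraries, with no test between genotypes and no replicate check. In whole stems, fewer green cells and less of these transcripts per cell cannot be told apart.

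The intervals in brackets below are 95% exact (Clopper-Pearson) intervals of the FPKM ratio. They come from read numbers recovered from the values. PCR copies count as separate reads, so the intervals hold counting error and nothing else, and they are too narrow if both mates of a pair were counted. Such an interval lay below a ratio of 1 for 34 of the 44 genes, above 1 for 5 and included 1 for 5. Among all genes compared, many with fewer reads, it lay below 1 for 29.2% and above 1 for 25.0%. Among 1450 other nuclear genes averaging 100 FPKM or more, it lay below 1 for 903 and above 1 for 399. The least-covered member had 283 reads in a library, so most intervals are narrow.

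**Figure D1:**
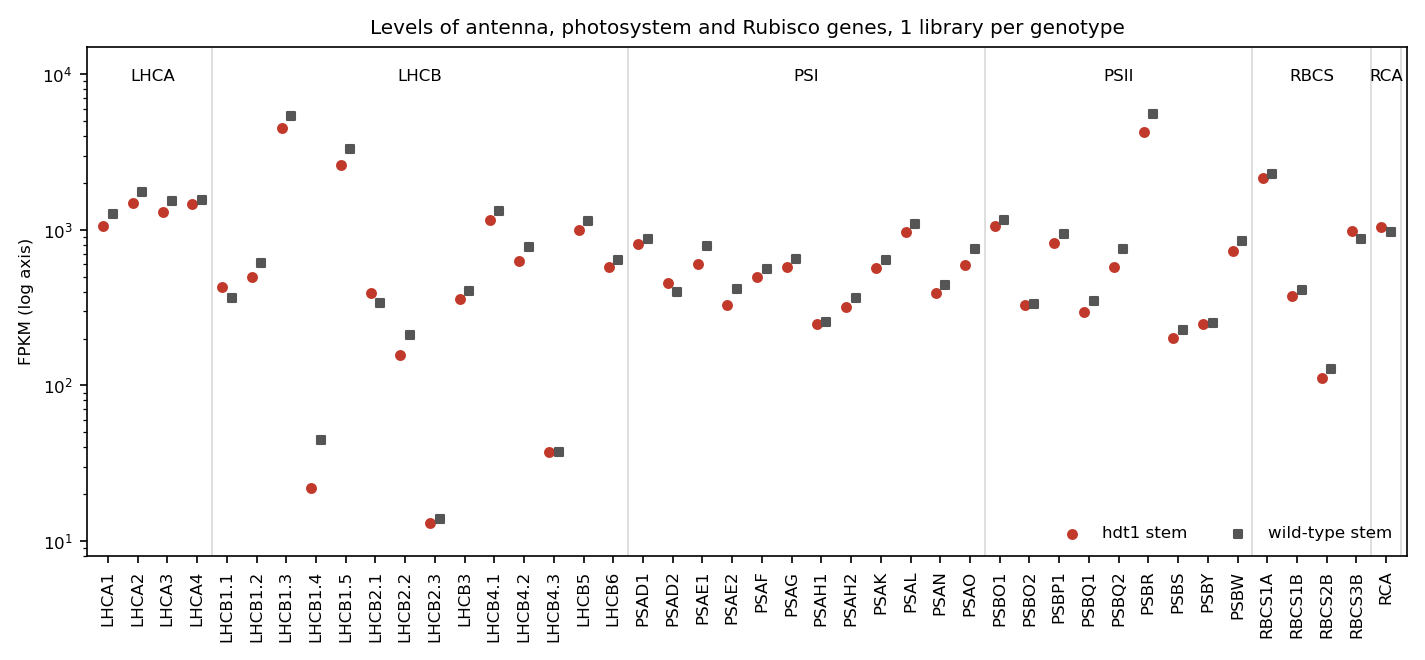
FPKM (log axis) of the 44 genes in the hdt1 library (red circles) and the wild-type library (grey squares), 1 library each, grouped by complex. Within each complex the order of the levels is much the same in both libraries, with LHCB1.3 (4531 FPKM in hdt1, 5374 in wild type) and PSBR at the top and LHCB1.4, LHCB2.3 and LHCB4.3 at the bottom.

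The small difference also held among other abundant genes. Among 1450 other nuclear genes averaging 100 FPKM or more, a set added after values were seen, 994 were below 0 and 456 above, with a median of -0.16 and quartiles of -0.32 and 0.09. Of the 1133 of these inside the length range of the members, 607 to 1868 bases, the median was -0.16 as well. Ratios moved with gene length across the genome. The median log2 ratio was -0.18 among genes of 655 to 877 bases, a class with 13 members, and 0.15 among genes of 2831 bases or more, a class with 0. Once the median ratio of genes of like length (50 bins) was subtracted, the median of the 44 genes was -0.04, with 28 below 0 and 16 above. This subtraction sets the median of all genes compared to 0, so by construction about as many of them lie above 0 as below. No such value is given here for the 1450 other abundant genes.

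**Figure D2:**
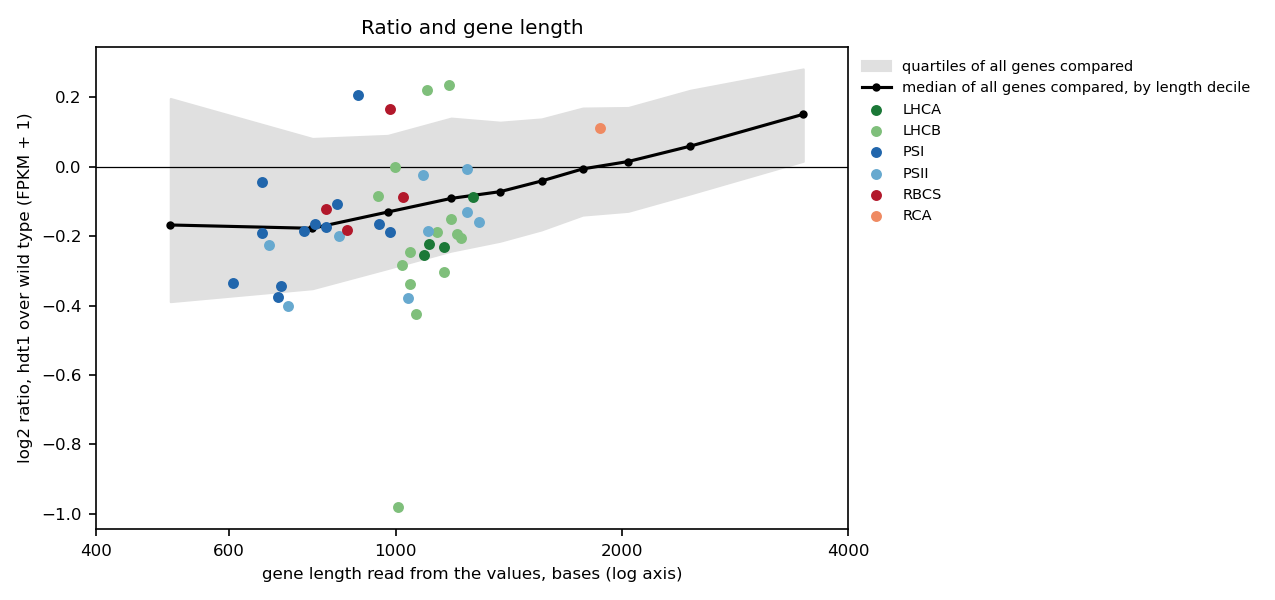
Log2 ratio of hdt1 over wild type (FPKM + 1) against gene length in bases (log axis) for the 44 genes, coloured by complex. The black line joins the medians of all genes compared in 10 length classes of equal size, plotted at their median length, and the grey band gives their quartiles. Of the antenna genes, 14 of 18 lie below the trend once it is removed in 50 bins. By construction about as many of all genes compared lie above it as below. LHCB1.4 is the lowest point at -0.98.

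The 4 LHCA genes, which encode the antenna belt of photosystem I, were all lower in the hdt1 library. LHCA1 (AT3G54890) was at 1058 FPKM in hdt1 stem against 1263 FPKM in wild-type stem, 1.19-fold lower (1.17 to 1.21). LHCA2 (AT3G61470) was at 1498 FPKM in hdt1 stem against 1747 FPKM in wild-type stem, 1.17-fold lower (1.15 to 1.18). LHCA3 (AT1G61520) was at 1304 FPKM in hdt1 stem against 1530 FPKM in wild-type stem, 1.17-fold lower (1.16 to 1.19). These genes thus differed by nearly the same ratio. LHCA4 (AT3G47470) was closer between the libraries and level with genes of its length once that trend was removed (log2 ratio -0.0012), at 1471 FPKM in hdt1 stem against 1564 FPKM in wild-type stem, 1.06-fold lower (1.05 to 1.08). The LHCA median was -0.23, and all 4 genes were below 0 under each scaling tried and after removal of the length trend, where the median was -0.12.

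The LHCB1 genes encode the main protein of the light-harvesting trimers of photosystem II. LHCB1.3 (AT1G29930, CAB1) was at 4531 FPKM in hdt1 stem against 5374 FPKM in wild-type stem, 1.19-fold lower (1.18 to 1.20), and ranked 5 among all loci in the hdt1 library and 7 in the wild-type library. LHCB1.5 (AT2G34420) was at 2631 FPKM in hdt1 stem against 3325 FPKM in wild-type stem, 1.26-fold lower (1.25 to 1.28). Together these 2 copies carried most of the LHCB1 transcript in both libraries. LHCB1.2 (AT1G29910, CAB3) was at 500.2 FPKM in hdt1 stem against 608.8 FPKM in wild-type stem, 1.22-fold lower (1.19 to 1.25). LHCB1.1 (AT1G29920, CAB2) went the other way, at 430.8 FPKM in hdt1 stem against 365.6 FPKM in wild-type stem, 1.18-fold higher (1.15 to 1.21). It lies between LHCB1.2 and LHCB1.3 on chromosome 1, with no other coding gene between them in the RefSeq annotation of TAIR10.1.

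LHCB1.4 (AT2G34430) had the lowest ratio of the 44 genes. It was at 22.0 FPKM in hdt1 stem against 44.4 FPKM in wild-type stem, from 512 and 973 reads, 2.02-fold lower (1.81 to 2.25). Its log2 ratio with 1 FPKM added was -0.98, just inside the 2-fold limit, and -1.01 with 0.1 FPKM added. Of its coding stretches of 100 bases, 5.70% occur exactly in another gene, and its protein is 96.2% identical to that of the far more abundant LHCB1.5. The part of wrongly assigned reads in this ratio was not tested. LHCB1.4 supplied 0.271% of the LHCB1 sum in the hdt1 library and 0.457% in the wild-type library. The sum of the family, 8116 FPKM in hdt1 stem against 9718 FPKM in wild-type stem, therefore hardly depends on it.

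LHCB2 proteins form trimers with LHCB1 and carry a phosphorylation site used in state transitions. LHCB2.1 (AT2G05100) was at 392.8 FPKM in hdt1 stem against 336.5 FPKM in wild-type stem, 1.17-fold higher (1.13 to 1.20). Its neighbour LHCB2.2 (AT2G05070) was at 157.3 FPKM in hdt1 stem against 211.5 FPKM in wild-type stem, 1.34-fold lower (1.29 to 1.40). LHCB2.3 (AT3G27690), the least abundant member, was at 13.0 FPKM in hdt1 stem against 13.8 FPKM in wild-type stem, with an interval that includes 1 and a log2 ratio above 0 with the length trend removed. The 3 copies summed to 563.1 FPKM in hdt1 stem against 561.8 FPKM in wild-type stem. LHCB2.1 made up 69.8% of that sum in the hdt1 library and 59.9% in the wild-type library, and LHCB2.2 27.9% in the hdt1 library and 37.6% in the wild-type library.

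Of the other antenna genes none was above 0. LHCB3 (AT5G54270), a partner in the trimers, was at 357.4 FPKM in hdt1 stem against 407.2 FPKM in wild-type stem, 1.14-fold lower (1.11 to 1.17). The minor antenna proteins link the trimers to the core. LHCB4.1 (AT5G01530) was at 1152 FPKM in hdt1 stem against 1328 FPKM in wild-type stem, 1.15-fold lower (1.14 to 1.17), and LHCB4.2 (AT3G08940) was 1.23-fold lower (1.21 to 1.26). LHCB5 (AT4G10340) was at 1003 FPKM in hdt1 stem against 1147 FPKM in wild-type stem, 1.14-fold lower (1.12 to 1.16), and LHCB6 (AT1G15820) was 1.11-fold lower (1.09 to 1.13). LHCB4.3 (AT2G40100) was at 37.56 FPKM in hdt1 stem against 37.58 FPKM in wild-type stem, where its counting interval for the ratio runs from 0.907 to 1.10, and its sign changed with the scaling. The 14 LHCB genes had a median of -0.20 and a range of -0.98 to 0.24, the widest of the complexes.

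**Figure D3:**
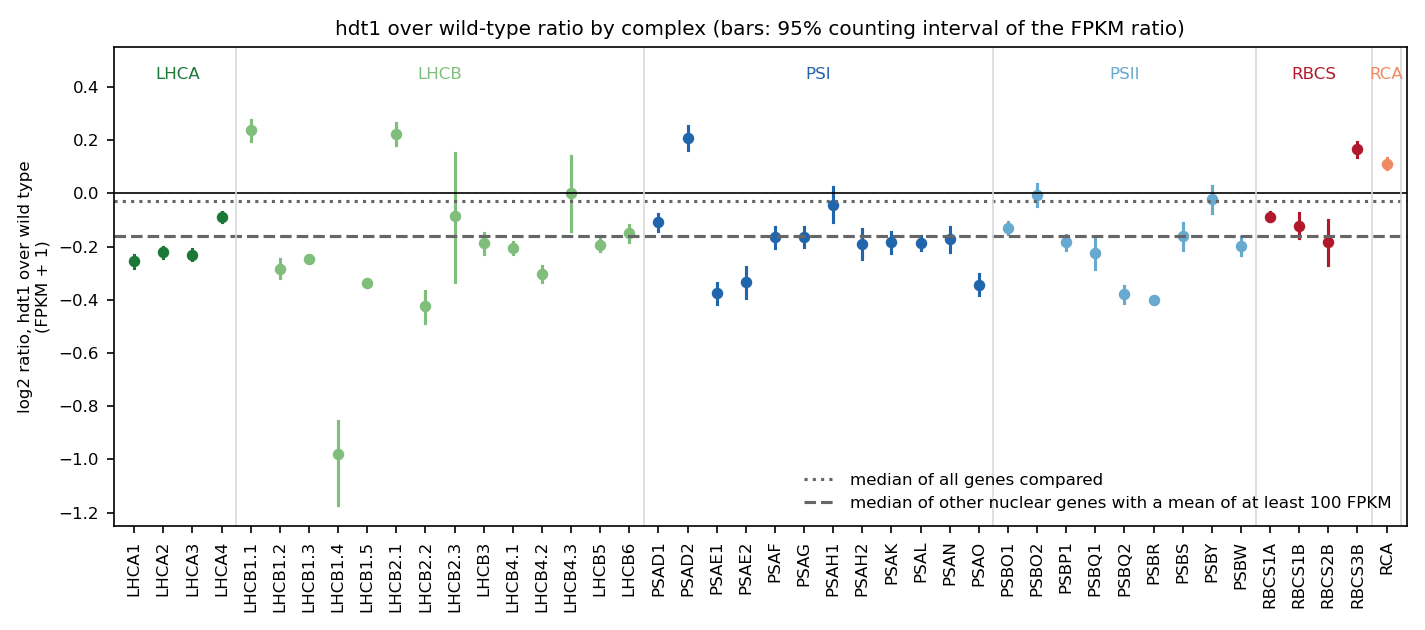
Log2 ratio of hdt1 over wild type (FPKM + 1) for each of the 44 genes, by complex, with the 95% counting interval of the FPKM ratio as a bar. The dotted line marks the median of all genes compared (-0.03) and the dashed line that of other nuclear genes averaging 100 FPKM or more (-0.16), and LHCB1.1, LHCB2.1, PSAD2, RBCS3B and RCA lie above 0.

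The nuclear subunits of photosystem I form its stromal ridge, its antenna docking sites and its lumenal side. PSAD and PSAE, which dock ferredoxin, differed from each other. PSAD1 (AT4G02770) was at 816.5 FPKM in hdt1 stem against 880.3 FPKM in wild-type stem, 1.08-fold lower (1.05 to 1.10) but above 0 with the length trend removed, whereas PSAD2 (AT1G03130) was at 458.0 FPKM in hdt1 stem against 396.6 FPKM in wild-type stem, 1.15-fold higher (1.12 to 1.19). Their sum was 1275 FPKM in hdt1 stem against 1277 FPKM in wild-type stem. PSAE1 (AT4G28750) was at 604.3 FPKM in hdt1 stem against 783.9 FPKM in wild-type stem, 1.30-fold lower (1.26 to 1.33). PSAE2 (AT2G20260) was at 330.8 FPKM in hdt1 stem against 417.2 FPKM in wild-type stem, 1.26-fold lower (1.21 to 1.31). Both PSAE copies were therefore lower by about the same ratio, and neither PSAE share of the pair moved by as much as 1 percentage point.

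Of the other subunits of photosystem I, PSAO (AT1G08380), which takes part in binding the mobile antenna, was at 595.0 FPKM in hdt1 stem against 755.0 FPKM in wild-type stem, 1.27-fold lower (1.24 to 1.30). PSAL (AT4G12800), also near that site, was at 965.2 FPKM in hdt1 stem against 1099 FPKM in wild-type stem, 1.14-fold lower (1.12 to 1.16). PSAK (AT1G30380) and PSAG (AT1G55670), which anchor LHCA proteins, were 1.14-fold lower (1.11 to 1.17) and 1.12-fold lower (1.09 to 1.15), PSAG being at 0.01 on the log2 scale with the length trend removed. The plastocyanin-docking subunit PSAF (AT1G31330) was 1.12-fold lower (1.09 to 1.15) and the lumenal PSAN (AT5G64040) 1.13-fold lower (1.09 to 1.16). PSAH2 (AT1G52230) was 1.14-fold lower (1.10 to 1.19) but level with genes of its length (log2 ratio 0.0005), and its copy PSAH1 (AT3G16140) was at 247.5 FPKM in hdt1 stem against 255.0 FPKM in wild-type stem with an interval that includes 1 and a sign that changed with the scaling. The 12 genes had a median of -0.18. Of these, 11 were below 0, and with the length trend removed 7 were below 0 and the median was -0.01.

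Photosystem II genes were below 0 in 9 of 9 cases, with a median of -0.18, and in 7 of 9 with a median of -0.04 with the length trend removed. PSBR (AT1G79040), a small subunit that stabilises the oxygen-evolving complex, was among the most abundant transcripts of the stem. It was at 4233 FPKM in hdt1 stem against 5587 FPKM in wild-type stem, 1.32-fold lower (1.31 to 1.33), and ranked 6 in both. The extrinsic proteins PSBO, PSBP and PSBQ shield the manganese cluster that splits water. PSBQ2 (AT4G05180) was at 577.3 FPKM in hdt1 stem against 751.2 FPKM in wild-type stem, 1.30-fold lower (1.27 to 1.33). PSBQ1 (AT4G21280) was at 296.1 FPKM in hdt1 stem against 346.4 FPKM in wild-type stem, 1.17-fold lower (1.12 to 1.22). PSBP1 (AT1G06680) was at 824.7 FPKM in hdt1 stem against 937.0 FPKM in wild-type stem, 1.14-fold lower (1.11 to 1.16).

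PSBO1 and PSBO2 are a pair of manganese-stabilising proteins. PSBO1 (AT5G66570), the more abundant, was at 1057 FPKM in hdt1 stem against 1157 FPKM in wild-type stem, 1.09-fold lower (1.08 to 1.11). PSBO2 (AT3G50820) was at 331.2 FPKM in hdt1 stem against 332.8 FPKM in wild-type stem, a ratio of 0.995 (0.967 to 1.02). PSBS (AT1G44575), the sensor of energy-dependent quenching, was 1.12-fold lower (1.08 to 1.16), and the small subunit PSBW (AT2G30570) was 1.15-fold lower (1.12 to 1.17). The interval of PSBY (AT1G67740) includes 1, at 246.5 FPKM in hdt1 stem against 250.4 FPKM in wild-type stem. PSBO2 and PSBY were above 0 under each of the 3 other scalings and with the length trend removed.

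The RBCS sum was the closest to equal among the complexes, and all 4 RBCS genes were above 0 with the length trend removed. On that log2 scale RBCS1B was at 0.036 and RBCS2B at 0.010. Their counting intervals reach 0.048 and 0.084 to either side, so both lay within counting error of 0. RBCS1A (AT1G67090), the main small subunit gene, was at 2154 FPKM in hdt1 stem against 2289 FPKM in wild-type stem, 1.06-fold lower (1.05 to 1.08). RBCS1B (AT5G38430) was at 377.6 FPKM in hdt1 stem against 410.8 FPKM in wild-type stem, 1.09-fold lower (1.05 to 1.12). RBCS2B (AT5G38420) was at 111.6 FPKM in hdt1 stem against 126.7 FPKM in wild-type stem, 1.14-fold lower (1.07 to 1.20). RBCS3B (AT5G38410), in the same cluster on chromosome 5 as the other 2 B-type genes, was instead at 978.9 FPKM in hdt1 stem against 872.2 FPKM in wild-type stem, 1.12-fold higher (1.10 to 1.14). The 4 genes summed to 3622 FPKM in hdt1 stem against 3699 FPKM in wild-type stem. RBCS3B supplied 27.0% of the sum in the hdt1 library and 23.6% in the wild-type library. RCA (AT2G39730), the Rubisco activase gene, was at 1047 FPKM in hdt1 stem against 968.6 FPKM in wild-type stem, 1.08-fold higher (1.07 to 1.10), and stayed above 0 under each setting tried.

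Between complexes the medians lay close together before the length trend was removed. They were -0.23 for LHCA, -0.20 for LHCB, -0.18 for photosystem I, -0.18 for photosystem II and -0.10 for RBCS, a value that became 0.04 with the length trend removed. The 18 antenna genes had a median 0.03 lower than the 21 photosystem subunits (a difference of -0.03). The counting error of the middle genes was 0.034, which does not measure the spread between genes. Quartiles were -0.28 and -0.10 for the antenna and -0.23 and -0.13 for the photosystem subunits, so the sets overlapped. With the length trend removed the difference was -0.10. The medians were then -0.12 for LHCA, -0.12 for LHCB, -0.01 for photosystem I and -0.04 for photosystem II. RBCS genes had a median 0.08 above the photosystem subunits. Summed FPKM was 17765 in the hdt1 library and 20717 in the wild-type library for the antenna, a ratio of 0.858, and 14878 in the hdt1 library and 17680 in the wild-type library for the photosystem subunits, a ratio of 0.842. RBCS had a ratio of 0.979. As a share of counted reads, the 44 genes took 3.81% of the hdt1 library (exact interval 3.80 to 3.82) and 4.35% of the wild-type library (4.34 to 4.35).

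**Figure D4:**
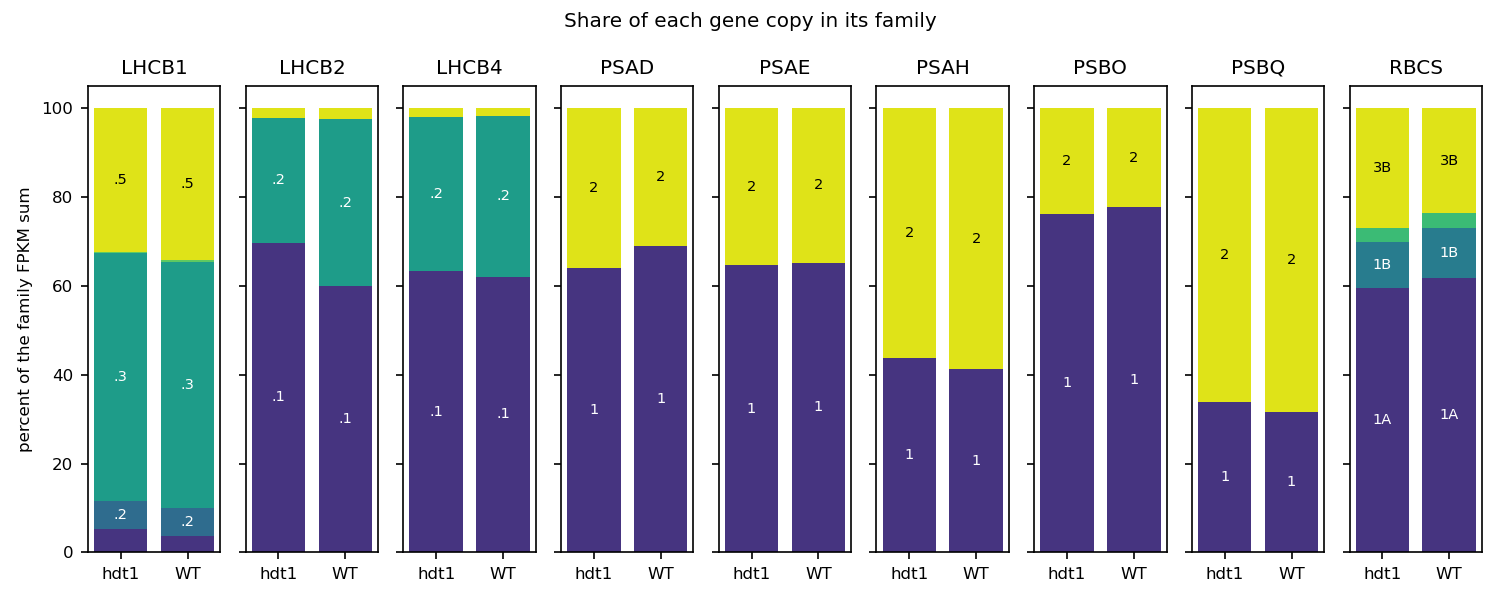
Share of each gene copy in the FPKM sum of its family, in percent, in the hdt1 and the wild-type (WT) library, with copies stacked from the lowest number at the bottom and shares under 5% in either library left without a label. The share of LHCB2.1 is 69.8% in hdt1 and 59.9% in WT, that of PSAD2 35.9% and 31.1%, and that of RBCS3B 27.0% and 23.6%, while the PSAE pair is nearly the same in both.

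In these values gene copies were not lower together in all families. Without the 13 members with a near-identical copy (protein identity of 95% or more), 1 gene (RCA) was above 0. The fold of LHCB2.1 was 1.57 times that of LHCB2.2 (1.49 to 1.65), the fold of LHCB1.1 was 1.43 times that of LHCB1.2 (1.38 to 1.49), and that of PSAD1 was 0.803 times that of PSAD2 (0.774 to 0.834). These intervals use the normal approximation to the log odds ratio of the 4 read numbers and cover counting error. Near-identical copies limit such comparisons, since reads of shared stretches cannot be assigned. In the RefSeq coding sequences of TAIR10.1, LHCB1.1 and LHCB1.2 encode proteins with 100% identity, and LHCB2.1 and LHCB2.2 proteins with 97.7%. Some coding stretches of 100 bases occur exactly in another gene. Their share was 7.66% in LHCB1.1, 2.41% in LHCB1.2, 5.25% in LHCB1.3, 5.70% in LHCB1.4 and 5.72% in LHCB1.5. It was 13.6% in LHCB2.1, 18.5% in LHCB2.2, 30.0% in RBCS1B and 20.6% in RBCS3B. PSAD1 and PSAD2 share no such stretch, with proteins 95.1% identical. Overlapping genes are annotated for 17 of the 44. For PSAD2 the overlapping gene AT1G03140, on the same strand, was at 64.19 FPKM in hdt1 stem against 64.20 FPKM in wild-type stem, and LHCB2.3 was overlapped by AT3G27700 with 10.7 FPKM in hdt1 stem against 10.3 FPKM in wild-type stem.

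Sequence features that the choice of genes did not use were also described, with near-identical copies counted as separate genes. Their median length was 1021 bases, against 1469 bases for all genes compared and 1009.5 bases for the 1450 other abundant nuclear genes, so short length is shared with those. Their median exon GC content was 43.6%, against 41.1%. Motifs were searched on both strands in the 250 bases before the RefSeq gene start. The G-box CACGTG, bound by bZIP and bHLH factors of light signalling, occurs in 9 of the 44 (20.5%), against 6.49% of 27443 nuclear coding genes. The I-box GATAAG, known from RBCS promoters, occurs in 11 of the 44 (25.0%), against 12.3%. CCAATC, letters linked to the GLK factors in Arabidopsis, occurs in 12 of the 44 (27.3%), against 10.2% of all. It was found in 3 of 4 LHCA and 7 of 14 LHCB genes but in 0 of 12 photosystem I genes. The shorter CCAAT, which every CCAATC contains, occurs in 13 of 14 LHCB genes and in 1 of 9 photosystem II genes, against 46.0% of all. The 12 members with CCAATC had a median log2 ratio of -0.24 (range -0.42 to 0.22) and the 32 without it -0.18 (-0.98 to 0.24). These ranges overlap. Medians with and without the other motifs were -0.19 and -0.18 (G-box), -0.18 and -0.19 (I-box), and -0.19 and -0.17 (CCAAT). A match of letters is a description and does not show binding.

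Other photosynthesis genes in the nucleus were described by 8 further lists. Of all genes compared 54.0% were below 0, and of the 1450 other abundant nuclear genes 994 were, so a list with a share near these shows nothing particular to it. The counts of these lists were not recomputed with the length trend removed or under the 3 other scalings, which move each log2 ratio up by 0.04 to 0.06. Among 13 genes of electron transport and the ATP synthase, 10 were below 0 and 3 above, with a median of -0.12 and none past 2-fold. The ferredoxin gene FD2 was at 472.2 FPKM in hdt1 stem against 572.9 FPKM in wild-type stem, 1.21-fold lower (1.18 to 1.25), and PGR5, of cyclic electron flow, was 1.31-fold lower (1.22 to 1.40). FD1 was 1.31-fold lower and PETC, the Rieske protein, 1.17-fold lower. Of 16 Calvin cycle genes 11 were below 0, with a median of -0.10. CP12-1, a small regulator that binds phosphoribulokinase and glyceraldehyde phosphate dehydrogenase, was at 2099 FPKM in hdt1 stem against 2584 FPKM in wild-type stem, 1.23-fold lower (1.21 to 1.25). The Calvin cycle enzyme genes RPE, RPI3 and FBA1 were 1.20-fold, 1.20-fold and 1.19-fold lower.

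Most factors that build these complexes were lower too. All 9 listed genes of Rubisco assembly were below 0, with a median of -0.24. The interval lay below 1 for 8, against 29.2% of all genes compared. BSD2, a chaperone of Rubisco assembly, was at 120.4 FPKM in hdt1 stem against 163.9 FPKM in wild-type stem, 1.36-fold lower (1.29 to 1.44), and the co-chaperonin CPN20 was 1.34-fold lower (1.29 to 1.40). The chaperonin subunit CPN60A1 was 1.24-fold lower (1.18 to 1.30) and RBCX1 1.20-fold lower (1.05 to 1.36). Genes for assembly and import into thylakoids were below 0 in 8 of 10 cases, with a median of -0.19. FTSY, a receptor of the chloroplast signal recognition particle, was 1.27-fold lower (1.14 to 1.42), PYG7 1.23-fold lower (1.15 to 1.33), the antenna phosphatase gene TAP38 1.19-fold lower (1.15 to 1.24) and LPA1 1.19-fold lower (1.09 to 1.29). Of 11 minor antenna and photosystem genes, 7 were below 0 and 4 above, with a median of -0.12. PSB28 was 1.30-fold lower (1.14 to 1.49) and PSBP2 1.28-fold higher (1.10 to 1.48), while the intervals of LHCB7, at 11.6 FPKM in hdt1 stem against 10.1 FPKM in wild-type stem, and of the low ELIP2 include 1.

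Chlorophyll synthesis was evenly divided, with 7 of 14 genes above 0 and 7 below. CAO, which makes the chlorophyll b of the antenna, was at 43.9 FPKM in hdt1 stem against 32.6 FPKM in wild-type stem, 1.35-fold higher (1.26 to 1.44). PORB, a light-dependent reductase of protochlorophyllide, was 1.27-fold higher (1.23 to 1.31), while the low PORA was 1.57-fold lower (1.22 to 2.04) and CHLI1, a subunit of magnesium chelatase, 1.22-fold lower (1.16 to 1.30). Chlorophyll breakdown genes were below 0 in 5 of 7 cases, with a median of -0.11. SGR2 was 1.33-fold lower (1.19 to 1.48), NOL 1.18-fold lower (1.03 to 1.34) and NYC1 1.08-fold lower (1.03 to 1.14), and the interval of RCCR includes 1.

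Of the regulators, 4 of the 4 that entered were above 0, as were 46.0% of all genes compared. The interval lay above 1 for 3, as for 25.0% of all genes compared. GLK2, a GARP-type activator of photosystem and chlorophyll genes, was at 104 FPKM in hdt1 stem against 51.3 FPKM in wild-type stem, 2.03-fold higher (1.90 to 2.17), and was the only gene of the 8 nuclear companion lists drawn here to be at least 2-fold higher. GLK1 was at 29.4 FPKM in hdt1 stem against 25.3 FPKM in wild-type stem, 1.16-fold higher (1.06 to 1.27), and the GATA factor GNC 1.21-fold higher (1.01 to 1.46). HY5, a bZIP factor of light signalling, was at 9.61 FPKM in hdt1 stem against 8.83 FPKM in wild-type stem, and its interval includes 1. Antenna transcripts follow the time of day, and 7 of 9 clock genes were above 0, against 46.0% of all genes compared. The interval lay above 1 for 4 of the 9, against 25.0% of all genes compared. These 4 had the largest absolute ratios of the list. TOC1 was 1.42-fold higher (1.36 to 1.49), PRR5 1.54-fold higher (1.44 to 1.63), CCA1 1.26-fold higher (1.13 to 1.41) and GI 1.16-fold higher (1.12 to 1.21), and the part of collection time in the ratios was not tested.

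Subunits of the same complexes that are encoded in the plastid genome were mostly higher in the hdt1 library. All 9 that entered were above 0, against 46.0% of all genes compared, with a median of 0.75. The interval lay above 1 for 7, against 25.0% of all genes compared. The intervals of PSBD (0.928 to 1.16) and PSBE (0.748 to 2.63), both named after their values were seen, include 1. PSAC, the iron-sulfur subunit of photosystem I, had 53 reads in hdt1 and 20 in wild type, at 9.34 FPKM in hdt1 stem against 3.74 FPKM in wild-type stem, 2.50-fold higher (1.47 to 4.41). PSBA was at 818 FPKM in hdt1 stem against 483 FPKM in wild-type stem, 1.69-fold higher (1.65 to 1.73). PSAA and PSAB, the core of photosystem I, were 2.11-fold higher (1.81 to 2.47) and 2.04-fold higher (1.76 to 2.38); of the 12 nuclear genes of that photosystem 11 were below 0. RBCL, named after its value was seen, was at 67.6 FPKM in hdt1 stem against 39.8 FPKM in wild-type stem, next to an RBCS sum that differed by a ratio of 0.979. Plastid transcripts mostly lack long poly(A) tails, and the sources used here do not say how messenger RNA was enriched. Neither levels nor ratios of hdt1 over wild type can therefore be compared between the genomes. The part of enrichment in the plastid ratios was not tested.

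**Figure D5:**
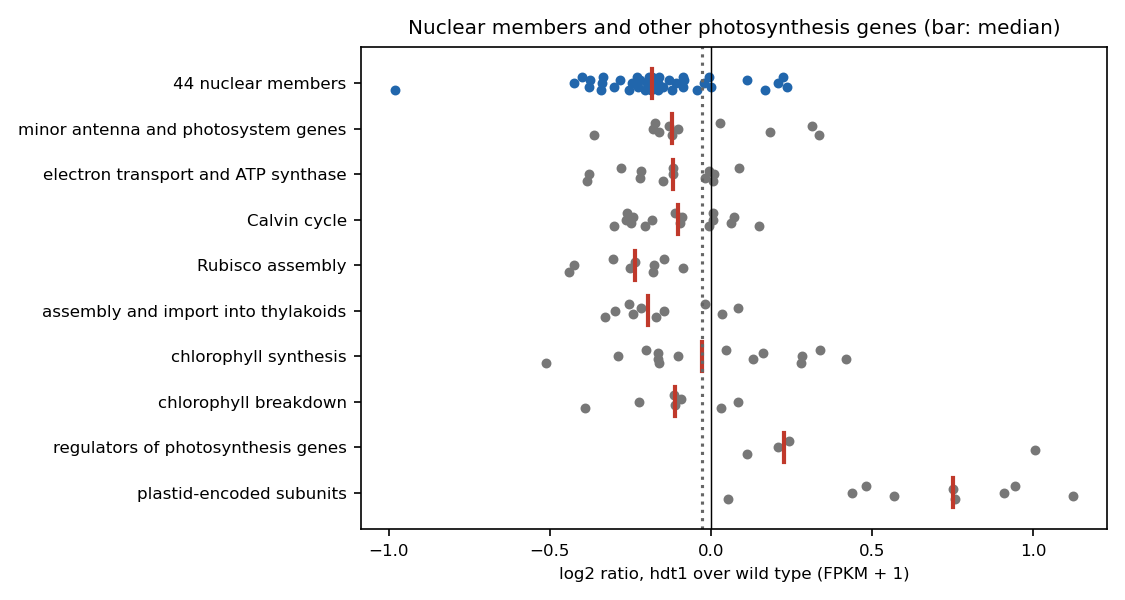
Log2 ratio of hdt1 over wild type (FPKM + 1) for the 44 nuclear genes (blue) and for genes of 9 other photosynthesis lists that averaged 1 FPKM or more (grey), 1 point per gene, with the median of each list as a red bar and the median of all genes compared as a dotted line. Medians of the nuclear lists run from -0.24 for Rubisco assembly to 0.23 for regulators of photosynthesis genes. The median of the plastid-encoded subunits, 0.75, cannot be compared with these, since the enrichment of messenger RNA is not stated.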

How the data were processed

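RNA of 1 hdt1 and 1 wild-type stem library was sequenced. Per the submitters' processing notes, the tools were HTSeq 0.6.1, TopHat2 2.0.12 and Bowtie2 2.2.3. The sources used here do not give a genome build, annotation, strand setting or messenger RNA enrichment. The authors deposited FPKM values for 33669 features, of which 67 without a locus identifier were left out.

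FPKM is reads divided by gene length and total, so low values lie on whole steps. These gave both totals, and whole reads within a relative tolerance of 1e-11 for all 21796 features above 0 in both libraries. Read numbers are the smallest whose implied gene length reaches the annotated coding length, within a small allowance. They sum to 99.2% of the hdt1 total and 99.0% of the wild-type total. Recovery was tested on simulated data. Precision is limited to counting error.

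Log2 ratios use 1 FPKM added to both values, for the 17811 loci averaging 1 FPKM or more, and understate differences of low genes. Coding sequences, exon GC, gene order, overlaps and motif windows come from RefSeq for TAIR10.1, in which 32835 loci were found. Coordinates are left out for want of a stated build. Python 3.11.15, SciPy 1.17.1 and Biopython 1.88 were used. Members and lists were chosen with earlier results of these data known. All 44 members are named, and of each other list up to 4 genes with the largest absolute log2 ratio. Genes named beyond this rule are the markers, RBCL, PSBD, PSBE and overlapping genes. Alternatives were other pseudocounts, 3 other scalings, removal of length or GC trends, members without near-identical copies, other limits and other filters.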

Additional observations from a re-analysis of the deposited data

How the results depend on the processing

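No paired analysis was possible because there is 1 library per genotype. The other pseudocounts of 0.1 and 5 FPKM left the sign of all 44 genes, and 1 gene (LHCB1.4) was at least 2-fold lower with 0.1 FPKM. With a limit of 1.5-fold 1 gene was lower and 0 were higher. Equal FPKM sums gave a median of -0.12 with 9 genes above 0, and complex medians of -0.16 (LHCA), -0.14 (LHCB), -0.12 (photosystem I), -0.12 (photosystem II), -0.042 (RBCS) and 0.17 (RCA). Centring on the median of genes averaging 10 FPKM or more gave -0.13 with 9 above 0, and -0.17, -0.15, -0.12, -0.13, -0.051 and 0.17 in the same order. Equal sums without the 100 most abundant and the organelle genes gave -0.14 with 8 above 0, and -0.19, -0.16, -0.14 for photosystem II, -0.065 for RBCS and 0.15 for RCA. The median of all genes moved by less than 0.1 under each scaling. Removing the length trend gave -0.039 with 16 above 0, and -0.12, -0.12, -0.0077, -0.043 and 0.042 (RBCS), with the antenna -0.10 from the photosystem subunits. Removing the GC trend gave -0.14 for photosystem II and -0.071 for RBCS. Without the 13 members with a near-identical copy, 1 gene (RCA) was above 0. The members took 4.81% of the FPKM sum in the hdt1 library and 5.31% in the wild-type library, and 3.82% and 4.36% of reads outside organelle genes. The direction of the members' median was below 0 under all of these settings, and the cause of the length trend was not tested. With no replicate, biological spread is not known.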
